A study of Rattus norvegicus with 18 samples.

Results

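The window described here covers 2 Mb of rat chromosome 20 (chr20:20000000-22000000, rn6 build), read by reduced representation bisulfite sequencing (RRBS) of testis DNA. Its members are the CpGs with at least 10 reads, strands summed, in at least 4 libraries of each group. Of 6576 CpG positions listed in the window, 2331 met that rule, out of 1316745 CpGs in the whole genome, and 1285 of the 2331 had 10 or more reads in all 12 libraries. The members were selected on coverage, but the window itself was chosen by methylation levels of these same libraries and how they differed between the groups, so differences between the groups inside it are given as a description. The libraries came from testes of Wistar rats aged 8 weeks, 6 labelled as chronic sleep restriction (CSR) and 6 as control. Both groups share strain, age and tissue, and the labels give neither the sleep protocol nor whether each library came from its own animal. The study asked whether CSR changes testis methylation and transcripts.

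In vertebrate DNA, methyl groups sit mainly on the cytosine of CpG dinucleotides. Most CpGs between genes and inside genes are methylated, whereas CpG-rich promoters are usually free of methylation, and methylation of a promoter generally goes with a silent gene. Bisulfite turns unmethylated cytosines into bases read as T and leaves methylated ones as C, so the level of a CpG is the percent of its reads that show C. In RRBS the DNA is first cut by MspI at CCGG, which concentrates the reads near such sites. A level is an average over the cells of the testis, most of them germ cells, and over both copies of the chromosome. At a CpG, a DNA base that is T where the reference has C is also read as T.

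No rn6 sequence or annotation was used. Genes were instead placed by matching the spacing of the CpGs listed in the window with the spacing of CG letters in the 33469 RefSeq promoters of build GRCr8, each running from 250 bases before a gene's start to 50 after it. For 8 promoters the match passed the threshold used, with every listed CpG on a CG and at least 6 matched. All 8 belong to chromosome 20, which holds 968 of the 33469 promoters. *Cdk1*, *Rhobtb1*, *Cabcoco1*, *Arid5b* and the long non-coding RNAs LOC120098936 and LOC108349057 lay in the order and on the strand of the GRCr8 table. *Ank3* and LOC134483901 lay in the opposite order and on the opposite strand. Each of the 8 promoters holds at least 1 CCGG, as do 51.4% of all promoters in the table (either strand, the site being its own reverse complement). The 4 protein-coding promoters with member CpGs are shown because they carry the low and the intermediate levels described next. The letters are those of GRCr8, 5′ to 3′ along the gene, with the matched CpGs in capitals.
Ank3: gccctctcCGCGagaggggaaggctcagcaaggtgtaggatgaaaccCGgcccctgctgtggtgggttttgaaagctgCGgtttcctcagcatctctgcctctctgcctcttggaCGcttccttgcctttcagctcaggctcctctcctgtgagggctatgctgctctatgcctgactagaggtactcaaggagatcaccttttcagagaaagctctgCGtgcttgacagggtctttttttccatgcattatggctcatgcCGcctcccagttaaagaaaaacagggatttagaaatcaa
Rhobtb1: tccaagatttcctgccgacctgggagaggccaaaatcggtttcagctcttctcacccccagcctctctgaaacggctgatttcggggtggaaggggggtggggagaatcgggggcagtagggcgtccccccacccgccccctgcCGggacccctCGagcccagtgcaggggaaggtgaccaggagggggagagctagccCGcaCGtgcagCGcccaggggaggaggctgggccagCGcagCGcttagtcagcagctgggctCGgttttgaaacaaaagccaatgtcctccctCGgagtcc
Cabcoco1: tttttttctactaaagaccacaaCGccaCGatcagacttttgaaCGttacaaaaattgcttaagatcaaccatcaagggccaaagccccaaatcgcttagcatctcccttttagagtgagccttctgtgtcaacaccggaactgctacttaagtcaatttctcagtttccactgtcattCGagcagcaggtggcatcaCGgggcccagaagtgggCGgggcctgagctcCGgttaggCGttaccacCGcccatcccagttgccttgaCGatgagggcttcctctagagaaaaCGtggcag
Arid5b: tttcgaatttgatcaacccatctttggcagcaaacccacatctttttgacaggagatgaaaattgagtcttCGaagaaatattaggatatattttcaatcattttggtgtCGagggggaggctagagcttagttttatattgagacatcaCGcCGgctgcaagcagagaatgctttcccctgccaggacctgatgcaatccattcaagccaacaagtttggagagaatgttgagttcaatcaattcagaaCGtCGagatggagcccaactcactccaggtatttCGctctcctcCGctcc

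Of these promoters, those of *Arid5b*, *Rhobtb1* and *Cabcoco1* were almost free of methylation in all covered libraries, and that of *Ank3* was not. *Arid5b* encodes a DNA-binding regulator of transcription with an ARID domain. Over its 8 members (chr20:21564805-21565029) the CSR libraries lay between 0 and 3.68%, with a median of 0%, and the control libraries between 0 and 2.23%, with a median of 0.183%. *Rhobtb1* encodes a protein with BTB domains. Its 9 members (chr20:20713085-20713234) stood at 0.662% ± 0.944 in CSR (SD, n = 5, CSR 5 not covered) and 0.238% ± 0.298 in control (SD, n = 6). *Cabcoco1* encodes a cilium-associated calcium-binding coiled-coil protein. Over its 4 members (chr20:21316599-21316869, 11 of 11 listed CpGs matched) all 6 CSR libraries and 4 control libraries read 0%, control 5 read 0.392% and control 6 read 2.82%.

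*Ank3* encodes ankyrin-G, a scaffold that ties membrane proteins to the spectrin skeleton. Its promoter (chr20:20104805-20105059, 5 members) was methylated to an intermediate level that differed widely between libraries. The CSR libraries ran from 33.7 to 70.4% with a median of 48.1%, and the control libraries from 30.4 to 74.4% with a median of 38.5%, on 65 to 138 reads per library summed over the 5 CpGs. Control 2 (74.4%) and CSR 2 (70.4%) were the highest and control 1 (30.4%) the lowest, and the groups overlapped. The 5 CpGs had like means over the libraries, from 46.4 to 48.6%. LOC108349057 (7 members) averaged 15.4% ± 12.3 over CSR libraries and 13.8% ± 7.13 over controls, and LOC120098936 (2 members) 16.9% ± 12.4 and 19.9% ± 9.41 (SD, 6 libraries each). For neither of these RNAs did the groups separate.

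**Figure D1:**
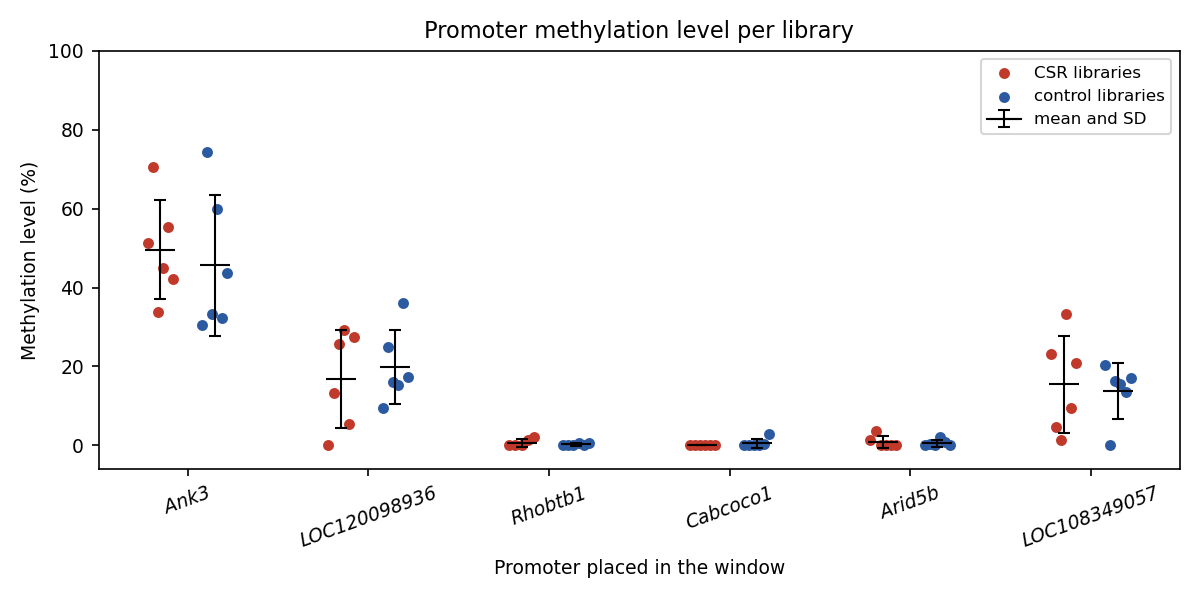
Methylation level (%, vertical axis) of the 6 placed promoters that hold member CpGs (horizontal axis). Each point is a library, red for CSR and blue for control, and the black marks give the mean and SD of a group. *Rhobtb1*, *Cabcoco1* and *Arid5b* stay below 4%, while the *Ank3* promoter spreads from 30.4 to 74.4% over both groups.

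The *Cdk1* promoter held no member CpG. *Cdk1* encodes the cyclin-dependent kinase that drives entry into mitosis and meiosis. All 12 listed CpGs were matched, but only 4 libraries had any of them listed, with 240 reads in all, of which 5 were methylated. The deposited tables list no cytosine with under 5 reads, so the others may hold reads there. LOC134483901, with 53 methylated of 1015 reads in 9 libraries, likewise held none. Among the placed genes only *Cdk1* and *Cabcoco1* have a transcript in the deposited FPKM table, from 3 CSR and 3 control testis RNA libraries. These RNA libraries carried the testis markers *Tnp1* (3903 to 7730 FPKM) and *Tnp2* (2668 to 4329 FPKM) of spermatids and *Insl3* (33.0 to 67.7 FPKM) of Leydig cells. However, *Prm1* and *Prm2*, also of spermatids, ranged from 0.0934 to 3029 FPKM and from 0.407 to 360 FPKM. *Cdk1* (NM_019296) was at 9.66, 6.85 and 7.78 FPKM in the CSR libraries, against 10.2, 13.5 and 9.39 for the controls. *Cabcoco1* (NM_001134576) was at 112, 99.3 and 103 FPKM in the CSR libraries, against 105, 115 and 115 for the controls. The groups overlapped for both genes, with mean differences (CSR minus control) of -2.94 and -7.14 FPKM. The two-sided exact permutation p was 0.2 for each (adjusted over the 2 genes, 0.2; the smallest p that 3 against 3 allows is 0.1). Fewer cells of a type and less RNA per cell cannot be told apart in such samples, and the labels do not tie RNA to methylation libraries.

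The libraries were of like depth in the window. They held 46257452 to 68940379 reads at CpG cytosines. Of the reads at CpGs with at least 10 reads in a library, 0.142 to 0.202% lay in the window, and the median coverage at members was 26 to 35 reads. The read share averaged 0.192% ± 0.00918 for CSR libraries and 0.177% ± 0.0218 for controls (SD, 6 libraries each; two-sided exact permutation p = 0.171), with control 5 (0.142%) and control 3 (0.163%) the lowest. Over the 1700 CpGs of the genome where each covered library was near 0, 50 or 100% (within 15 points) and at least 3 libraries were outside the most common state, CSR 2 and CSR 3 had the same state at 94.5% of the 1426 covered in both, against 38.2 to 50.7% for every other pair of libraries. Counts of the patterns in the window are therefore also given with CSR 2 and 3 summed as 1 library. In the submitters' file codes, the control methylation libraries bear a letter that by itself marks CSR RNA libraries. Control RNA libraries bear that letter with a second one after it. Each direction therefore rests on the labels.

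Methylation levels in the window were mostly high, with fewer unmethylated CpGs than in the genome at large. At 1002 members (43.0%) the mean over libraries was 90% or more, against 46.0% of all CpGs under the same rule. Only 204 members (8.75%) lay under 10%, against 23.8% of all CpGs, and 507 (21.8%) lay between 10 and 30%, against 8.61%. CpGs that only just met the rule, with 4 covered libraries in the smaller group, numbered 487 and averaged 54.4%, and those that just missed it, with 3, numbered 368 and averaged 64.1%. Libraries differed by a median of 22.7 points per member between the highest and the lowest, and by 50 points or more at 247 members (10.6%, against 7.19% of all CpGs).

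Along the window the 12 libraries rose and fell together. In stretches of 100 kb the mean level over libraries ran from 28.9% (chr20:21500001-21600000, which holds the *Arid5b* promoter) to 95.8% (chr20:20400001-20500000). In the second of these the 12 libraries lay within 2.41 points of each other, and the widest spread, 17.3 points, was at chr20:21100001-21200000. Control 5 was the lowest library in 7 of the 20 stretches and CSR 6 in 3. Library means over all members were 63.9% ± 1.18 for CSR libraries and 63.4% ± 1.65 for controls (SD, 6 libraries each). That difference of 0.490 points is smaller than either SD.

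**Figure D2:**
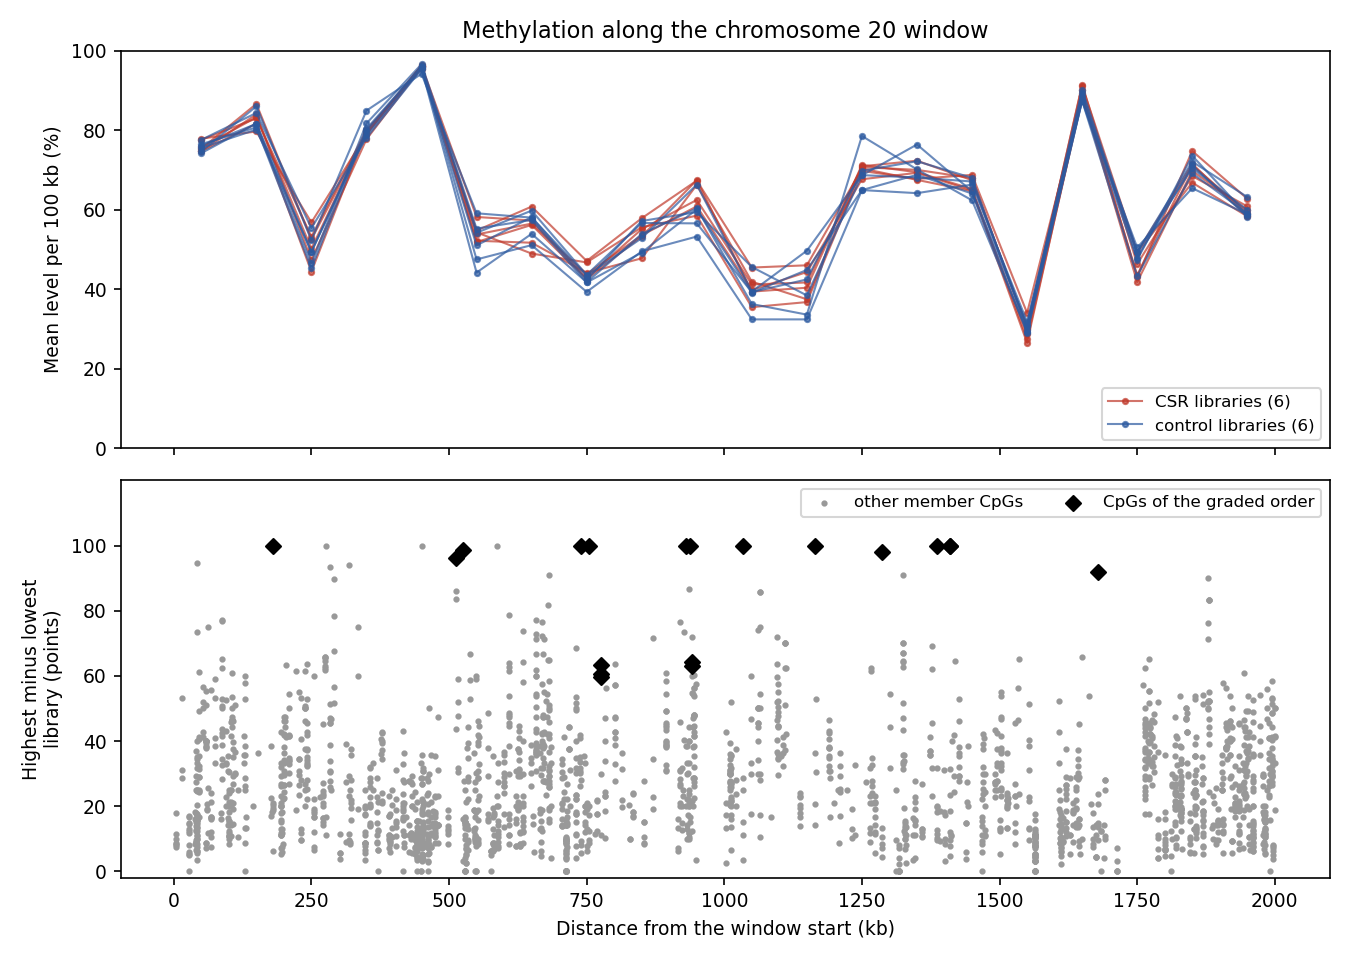
Top, mean methylation level (%) per 100 kb against the distance from the window start (kb), with 1 line per library, red for CSR and blue for control. Bottom, the highest minus the lowest library (percentage points) at each of the 2331 members, with black diamonds for the 19 CpGs of the graded order described in the text, which lie between 181.1 and 1678.1 kb.

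The unmethylated stretches were low in every library, up to 20.7%. Among the 300 tiles of 1000 bp with at least 3 members, 17 averaged under 10% and 128 averaged 90% or more. The tile with most CpGs of these 17, chr20:21564001-21565000 (32 CpGs, 472 to 1465 reads per library), holds the *Arid5b* promoter and lay between 0 and 6.14%. Next came chr20:20712001-20713000 (25 CpGs, 0 to 3.09%) and chr20:20713001-20714000 (11 CpGs, 0 to 1.83%), beside and over the *Rhobtb1* promoter. The *Cabcoco1* tile (chr20:21316001-21317000, 9 CpGs) lay between 0 and 1.75%. The highest level was that of control 4 at chr20:20730001-20731000 (18 CpGs), 20.7%, with the other libraries between 0.699 and 12.9%. At chr20:20231001-20232000 control 4 read 18.7%, control 3 read 18.1%, CSR 1 read 13.4% and CSR 4 read 13.2%.

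A set of 6 members was stepped, meaning that every covered library lay within 15 points of 0, 50 or 100% and at least 3 libraries were outside the most common of these states. Stepped CpGs made up 0.129% of all CpGs and 0.257% of the members. Among these, 3 shared the same state in all 12 libraries. At chr20:21409582-21409583 (38 to 240 reads) the 6 CSR libraries lay between 94.2 and 100% with a median of 98.4%. Control 2 read 98.3%, control 1 read 49.8%, control 3 read 55.6%, control 5 read 47.4% and control 6 read 51.1%. Control 4 had 0 methylated of 122 reads, which allows a level of up to 2.46%, and the other 11 libraries were all above it. RRBS reads carry no molecular identifiers, so such limits and intervals cover counting error only. At chr20:21409582-21409583 the highest depth was 240 reads, against 120 at chr20:21409554-21409555. Control 1 had 20 forward and 68 reverse reads at chr20:20941288-20941289, against 10 and 34 at chr20:20941233-20941234, with equal levels per strand. The highest depth was 106 reads at both chr20:20775509-20775510 and chr20:20775524-20775525. Whether molecules were counted more than once, which would make limits and intervals too narrow, was not tested.

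The other 2 CpGs of this set repeated the steps at more than 100 kb distance. At chr20:21286929-21286930 (43 to 217 reads) CSR ran from 91.4 to 97.8% (median 96.6%), control 2 read 98.0%, controls 1, 3, 5 and 6 read 47.2, 46.6, 39.5 and 49.2%, and control 4 had 0 of 116 reads. At chr20:20753798-20753799 (30 to 89 reads) CSR ran from 97.3 to 100% (median 100%), control 2 read 96.5%, controls 1, 3, 5 and 6 read 51.3, 36.4, 58.5 and 37.5%, and control 4 had 0 of 86 reads. The 95% Wilson interval of the lowest middle value, control 3 at the latter CpG, ran from 25.8 to 48.4%, and that of the highest, control 5, from 47.7 to 68.6%. Control 2 lay above all CSR libraries at the first of these CpGs and below all of them at the second, by under 1 point each time. Both strands gave 0% in control 4 at both CpGs. Some middle and high libraries differed more between strands. At chr20:20753798-20753799 control 5 read 73.1% on 52 forward reads and 33.3% on 30 reverse reads. At chr20:21286929-21286930 CSR 2 read 55% on 20 forward and 98.3% on 116 reverse reads. CSR 3 read 54.5% on 22 forward and 96.3% on 164 reverse reads there.

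The CpGs around these 3 were methylated in every library. In the tile that holds chr20:20753798-20753799, the 5 other members stood at 80% or more in all covered libraries, including one 6 bp away at 97.6% in control 4 on like depth. Around chr20:21286929-21286930 the 5 other members within 200 bp never fell below 86.8%, and around chr20:21409582-21409583 the 4 others stayed at 87.8% or more. The low levels were thus measured at 1 CpG of each stretch.

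The same order of libraries was then looked for at every CpG, asking for less exact levels. A CpG was counted in this graded order where each covered library of CSR 1 to 6 and control 2 read above each of controls 1, 3, 5 and 6, and each of those above control 4, with at least 30 points between the highest and lowest library and more than 50% of each set covered. The rule was written after the stepped CpGs had been seen, and it nearly repeats the group contrast by which the window was chosen. Its share in the window is therefore given as a description only. In the window 19 of 2078 evaluated members (0.914%) followed the rule, the 3 stepped CpGs among them, against 0.0136% of all CpGs (161 of 1184684). These 19 were 11.8% of all graded CpGs of the genome. Chromosome 20 held 3 others, of which the nearest were at chr20:7820785-7820786 and chr20:55916522-55916523. The opposite order was met by 1 member, chr20:21761265-21761266 (background 0.0143%). With CSR 2 and 3 summed there were 20 graded CpGs, 6 stepped CpGs and 3 that shared a pattern.

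**Figure D3:**
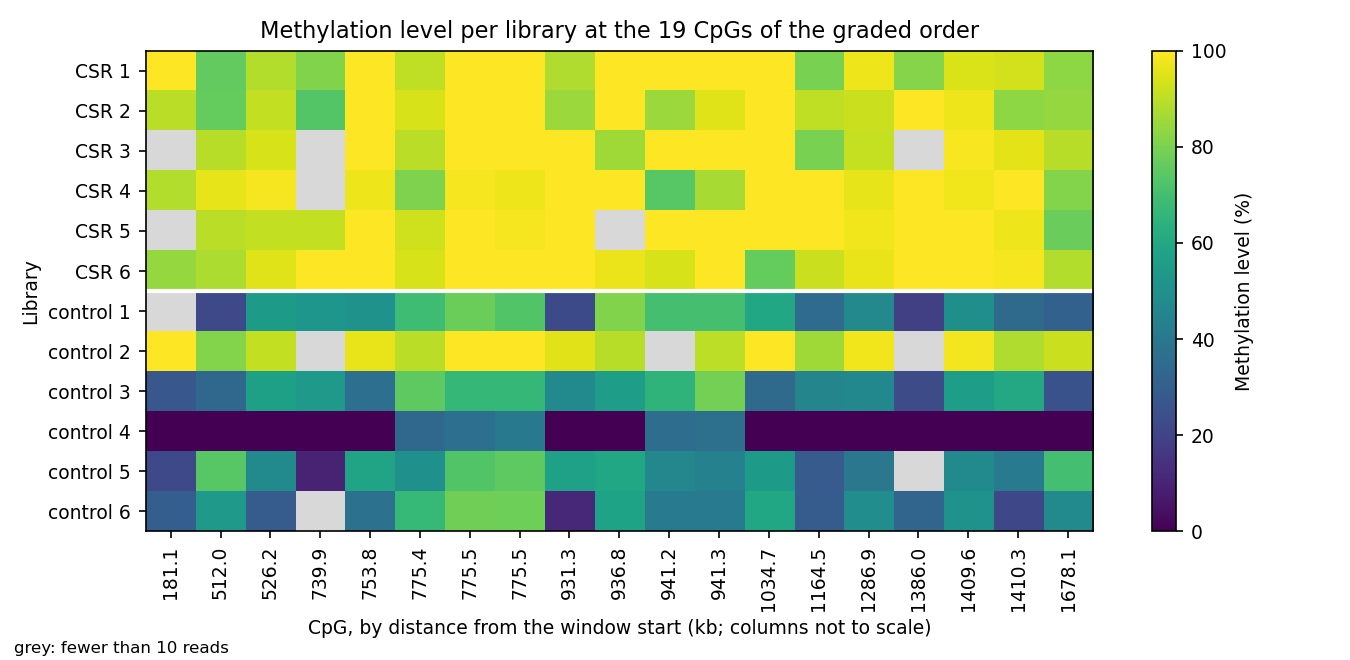
Heat map of the methylation level (colour, %) of the 12 libraries (rows) at the 19 CpGs of the graded order (columns, named by the distance in kb from the window start). Grey cells had fewer than 10 reads. The CSR rows and control 2 are at 73.3% or more, and control 4 is at 0% in 14 columns and between 33.3 and 40.4% in 5.

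The 19 CpGs lay at 15 places more than 1 kb apart, from chr20:20181087-20181088 to chr20:21678136-21678137, a span of 1497049 bp. None lay in a placed promoter, and the nearest was 26704 bp from one. Between the first matched CpGs of the *Rhobtb1* and *Cabcoco1* promoters, 603514 bp apart with 425 members, lay 12 of them. Another 3 lay between *Cabcoco1* and *Arid5b*, 2 between LOC134483901 and *Cdk1*, and 1 each between *Ank3* and LOC134483901 and between *Arid5b* and LOC108349057. Whether they are exonic, intronic or between genes was not determined without an rn6 annotation.

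At 14 of the 19 the level in control 4 was 0%, on 10 to 122 reads. The deepest of those not stepped were chr20:21164519-21164520 (0 of 86 reads), chr20:21410330-21410331 (0 of 71) and chr20:20526195-20526196 (0 of 66). At chr20:21164519-21164520 CSR ran from 80 to 100% (median 91.2%), control 2 read 85.7% and controls 1, 3, 5 and 6 read 34.8, 45.5, 28.6 and 29.3%. At chr20:21410330-21410331 CSR ran from 83.1 to 100% (median 96.8%), control 2 read 88.2% and the 4 middle controls from 21.8 to 60.5%. This CpG is 748 bp from the stepped one at chr20:21409582-21409583, and the 6 members between them read 66.7% or more in every covered library. At chr20:20526195-20526196 CSR ran from 88.5 to 98.6% (median 92.4%), control 2 read 90.8%, and the 4 middle controls read 29.0 to 56.8%. The thinnest was chr20:20512003-20512004, where 0 of 10 reads in control 4 allow a level of up to 30%. Control 4 had only reverse reads listed there and at chr20:21409582-21409583, and only forward reads at chr20:20181087-20181088 and chr20:20936831-20936832. At the last of these controls 1, 3, 5 and 6 read 71.4, 42.9, 27.3 and 45.5% forward, but 100, 100, 95 and 88.9% reverse. Over the 19 CpGs, forward and reverse levels were within 20 points in 121 of 163 library values with at least 5 reads on each strand. Most of the larger gaps were in controls 1, 3, 5 and 6, so this pooled count says little about the middle levels. At chr20:21410330-21410331 control 1 read 42.4% forward and 0% reverse, while control 6 read 21.1 and 27.3%.

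Most neighbours of the graded CpGs did not share their steps. Of the 62 other members within 200 bp, 43 had under 30 points between the highest and the lowest library, and control 4 was the lowest library, alone or tied, at 11. At chr20:21034655-21034656 control 4 read 0 of 23 reads, while the next CpG, 2 bp away, read 91.7% in control 4 and at least 85% everywhere. At chr20:20931270-20931271 control 4 read 0 of 26 reads and the CpG 31 bp away 85.2%. At chr20:21386043-21386044, where control 4 read 0 of 20 reads, CSR ran from 81.8 to 100% and the CpG 4 bp before it read 90% in control 4.

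In 3 patches of 4 or more CpGs several neighbours were lower together in most control libraries, though not all of them met the graded order. At chr20:20775438-20775541 there were 4 members, 3 of them graded, with 33.3 to 40.4% in control 4, 50 to 78.2% in controls 1, 3, 5 and 6, and 80.5 to 100% in CSR and control 2. The fourth member, chr20:20775524-20775525, read 76.9% in control 4 and lies between the graded ones. Summed over this patch, CSR ran from 93.9 to 98.6%, control 2 read 97.5%, and controls 1, 3, 5, 6 and 4 read 72.4, 72.9, 68.1, 74.3 and 46.9%. At chr20:20941221-20941385, 8 members in a row, 2 of them graded, were lower in the control libraries other than control 2 than in most CSR libraries. In the 6 of them covered in control 4 that library read 35.7 to 37.0%. The largest difference between the group means there was at chr20:20941278-20941279, with 94.4% ± 7.32 over CSR libraries and 50.8% ± 13.8 over controls (SD, 6 libraries each). At that CpG control 2 read 60% and the groups did not overlap. CSR 4 was the lowest CSR library at 7 of the 8 CpGs, down to 56.5%. The third patch, chr20:20511975-20512083, had 4 members, 1 of them graded, and 10 to 46 reads. Control 4 read 10, 0 and 10% at the first 3 of these and was not covered at the last, and control 1 read 22.2 to 50%. The CSR libraries lay between 70.8 and 96.2%, control 2 at 81.2% and control 5 between 74.1 and 81.5%, so control 5 overlapped CSR at chr20:20511975-20511976 and chr20:20512061-20512062. At the graded CpG of this patch, chr20:20512003-20512004, controls 1, 3 and 4 had only reverse reads listed. Controls 5 and 6 read 93.8 and 86.7% forward there, but 45.5 and 33.3% reverse. The lower control levels at this CpG thus came from reverse reads, on which the covered CSR libraries read 80 to 91.7%.

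**Figure D4:**
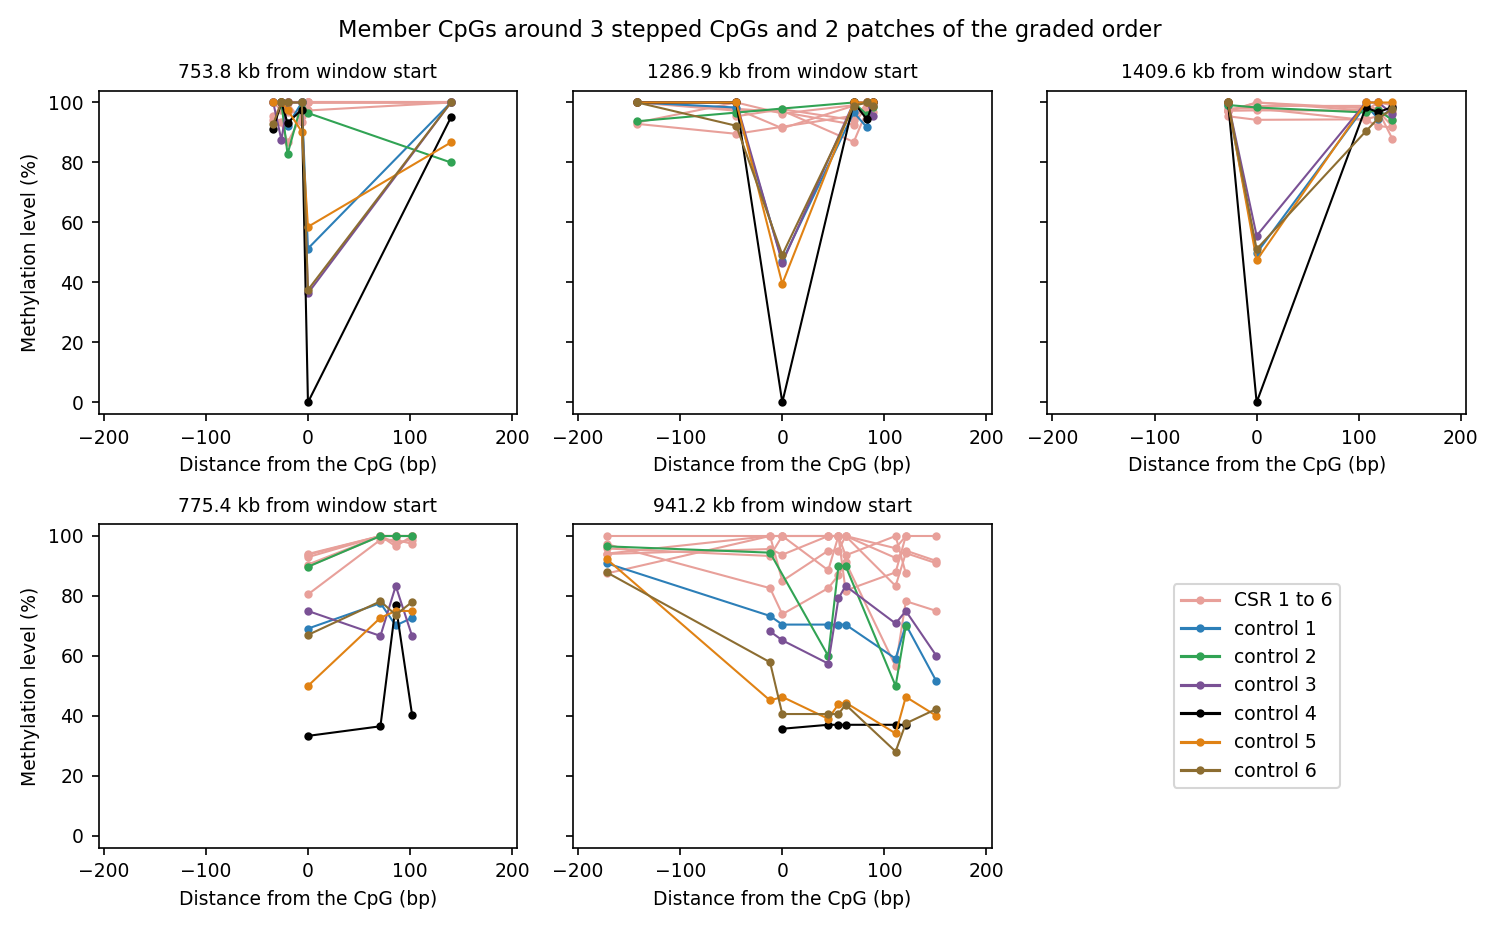
Methylation level (%, vertical axis) of the member CpGs within 200 bp of a graded CpG (horizontal axis, distance in bp), with 1 line per library; pink lines are the 6 CSR libraries. In the top row only the stepped CpG at 0 bp drops, in controls 1, 3, 5 and 6 to between 36.4 and 58.5% and in control 4 to 0%. In the 2 lower panels neighbouring CpGs differ together, with control 4 between 33.3 and 76.9%.

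The remaining stepped CpGs followed other libraries. At chr20:20129908-20129909 (15 to 38 reads) CSR 2 (61.9%), CSR 3 (56.2%), control 2 (47.1%) and control 4 (48.0%) were near 50%, and the 6 other covered libraries read 94.7% or more. Only 19 bp further, at chr20:20129927-20129928 (14 to 41 reads), those 4 libraries read 95.2% or more, and CSR 4 (42.1%), CSR 5 (51.7%) and control 3 (42.9%) were near 50%. CSR 1 and control 5 were not covered at either. The order of the first CpG was met by 10 members in the window (0.468%, background 0.152%) and that of the second by 15 (0.661%, background 0.365%). Each of these counts includes the CpG from which the order was taken. The opposite of the first order was met by 7 members (0.328%, background 0.24%) and the opposite of the second by 19 (0.838%, background 0.277%). The first order recurred at chr20:20276224-20276225 and chr20:20450249-20450250, where CSR 1, on which the order says nothing, read 0%. The second order recurred at chr20:20254609-20254610 (CSR 4 at 40%, CSR 5 at 65.5%, control 3 at 53.3%, the rest at 90.5% or more) and chr20:20464102-20464103 (58.3, 66.7 and 50%, the rest at 90.9% or more).

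The last stepped CpG, chr20:20936709-20936710 (14 to 26 reads), lay 122 bp from a graded one and had another order. Control 3 read 100% there with the CSR libraries (90 to 100%) and control 2 (100%), control 1 read 44.4%, control 5 read 13.3% and control 4 had 0 of 20 reads, which allows up to 15%. CSR 5 and control 6 were not covered. At chr20:20936646-20936647, 63 bp before it, control 1 read 44.4%, control 4 read 20% and control 5 read 13.3%, while the 5 covered CSR libraries, control 2 and control 3 read 80% or more. The order of chr20:20936709-20936710 was met by 9 members (0.491%, background 0.057%), itself among them and 6 of them also graded, and its opposite by 2 (0.109%, background 0.063%). This order was taken from a CpG of the window and has all covered CSR libraries at the top. Its share is therefore a description only, like that of the graded order. The 5 members between chr20:20936646-20936647 and chr20:20936709-20936710 stood at 55.6% or more in every covered library.

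The members with the widest range were largely these same CpGs. In all, 14 of the 2331 members reached from 0 to 100% over the libraries (background 0.301%), 11 of them not stepped. Of those 11, 8 were in the graded order. The others were chr20:20276224-20276225 and chr20:20450249-20450250, where CSR 1 was at 0%, and chr20:20587561-20587562, where controls 3 and 4 read 0%, control 1 read 50% and control 5 read 49.2%, with CSR at 78.3 to 100% (median 100%) and control 2 at 100%. The widest tiles were of a different kind. Only 2 of the 10 tiles with the widest range held a graded CpG, and in the other 8 the groups overlapped. At chr20:21111001-21112000 (7 CpGs, 50 to 272 reads) CSR 2 read 4.49% and CSR 6 read 70%, with the control libraries between 24.5 and 52.3%. At chr20:20291001-20292000 (5 CpGs) CSR 1 read 12.2% and CSR 5 read 75.7%, with the control libraries between 48.0 and 71.8%.

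Compared by group, no member passed the threshold. The test was a quasi-binomial model of methylated and unmethylated reads with limma-moderated dispersion, fitted over the genome with Benjamini-Hochberg adjustment. With an adjusted p under 0.05 and at least 10 points, it called 0 of the 2281 members tested (background 0.000242%, 3 of 1238661 CpGs). The 50 members left out had reads all of one kind. At an unadjusted p under 0.05 there were 210 members (9.21%, background 7.55%). Of the 300 tiles 0 were called (background 0%), with 36 at an unadjusted p under 0.05 (background 6.12%). Limma on log ratios likewise called 0 CpGs, with 165 members under an unadjusted p of 0.05 (7.08%, background 5.13%). The lowest adjusted p of a member in the quasi-binomial fit was 0.185, at chr20:21386043-21386044. Nothing is read from these counts, since the window was chosen with this contrast known.

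The calls changed most when control 2 was left out. Without control 2, 12 of the 20 CpGs called in the genome lay in the window, as did all 3 tiles called (chr20:20775001-20776000, chr20:21286001-21287000 and chr20:21409001-21410000). Of those 12 CpGs 11 were graded CpGs, at which, by the rule that defines them, the 5 other controls lie below every CSR library, and the twelfth was chr20:20775524-20775525 of the graded patch. Without CSR 1 the only call was chr20:21386043-21386044 and without control 1 it was chr20:20941278-20941279. Without any other single library 0 members were called.

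The groups did not overlap at 12 members (0.515%) with CSR higher by at least 10 points and at 8 (0.343%) with CSR lower, beside backgrounds of 0.122% and 0.117%. The largest on the high side was chr20:21386043-21386044, at 96.4% ± 8.13 in CSR (SD, n = 5) and 18.6% ± 13.6 in control (SD, n = 4; controls 2 and 5 not covered). Controls 2 and 5 had 8 reads each, under the minimum of 10, at 87.5%, inside the CSR range of 81.8 to 100%. The separation thus depends on that minimum. No CSR library had forward reads listed there, while those of controls 1, 3, 4 and 6 all read 0%. On reverse reads alone, controls 1, 3, 4 and 6 read 44.4, 29.4, 0 and 63.2%. Next was chr20:20739938-20739939, at 86.3% ± 11.6 and 29.1% ± 28.2 (SD, n = 4 each; CSR 3, CSR 4, control 2 and control 6 not covered). Control 2 held 8 reads there, all methylated, so this separation rests on the minimum as well. Forward reads partly reversed the order, with CSR 1 and CSR 2 at 42.9 and 33.3% but controls 1 and 3 at 100 and 80%. These levels rest on 5 to 7 reads, and CSR 6 (100%) and control 4 (0%) kept the order. Reverse reads gave 100, 100, 90.9 and 100% for CSR 1, 2, 5 and 6, and 35.7, 37.5, 0 and 10% for controls 1, 3, 4 and 5. The largest on the low side was chr20:21535579-21535580 (10 to 39 reads), which was in no graded order. There CSR read 4.17 to 23.1% (median 5.56%, CSR 4 not covered) and control 30.0 to 69.2% (median 47.0%), a difference of -36.6 points with an adjusted p of 0.561 in the quasi-binomial fit. Its CSR level of 10.9% ± 8.32 (n = 5) and control level of 47.5% ± 14.9 (SD, n = 6) rest on shallow reads. At chr20:20945555-20945556 and chr20:20945566-20945567, 11 bp apart, the differences (CSR minus control) were -18.1 and -18.2 points, with controls 1 and 2 and CSR 4 not covered.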

How the data were processed

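RRBS tables of 6 CSR and 6 control testis libraries were used, with 3 CSR and 3 control RNA libraries for 2 genes. Per the file headers, the deposited tables give the coverage of each CpG cytosine as a read count and the percent of its reads that are C or T. Coverage times percent gave whole methylated reads for 100% of values, and the lowest coverage was 5. Per the submitters' processing notes, Trim Galore, Bismark, SAMtools and rn6 were used for RRBS and Trimmomatic, HISAT2, StringTie and rn6 for RNA; no version or setting is stated there. The authors deposited FPKM values per RefSeq transcript, and their depth is unknown.

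Strands were summed, and a level needed at least 10 reads. The quasi-binomial model used R 4.3.3 and limma 3.58.1 over all CpGs and over 1000-bp tiles of at least 3 CpGs (at least 5 points for a tile). On simulated data of 1316745 CpGs it called 2% of 100 CpGs changed by 20 points and 13% of 100 changed by 40, with 1 call among 1316545 unchanged ones. Other values used numpy 2.4.6, pandas 2.3.3 and scipy 1.17.1. A promoter was placed where the number of matched CpGs times the log10 of the CG share of its positions was at most -9 and no listed CpG missed a CG; the next best promoter scored -8.17. Named CpGs and tiles were the stepped sets, the 10 widest CpGs that were not stepped and the 10 widest tiles, the 10 tiles under 10% with most CpGs, the 5 largest differences in each direction without overlap, and the members of the tile around chr20:20753798-20753799; the CpGs of the graded order, the patches, the promoters and the 2 transcripts were chosen after their values were seen. The members, lists and rules were chosen with earlier results of these data known. Since nothing shows that libraries are separate animals, p-values reflect the variation among these libraries alone.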

Additional observations from a re-analysis of the deposited data

Results flagged for a closer look

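In 55 groups of library values examined (levels of the window, of its promoters and of the graded CpGs), 9 held a library farther from the others than Dixon's limit for the group allows; chance alone gives such a gap in about 1 group of 20. In 4 of the 9 the other libraries were all at 100%, where any gap passes the limit and that rate does not apply. Control 2 read 0% at the LOC108349057 promoter, where the other 5 control libraries read 13.4 to 20.3%. Control 6 read 2.82% at the *Cabcoco1* promoter, where the others read 0 to 0.392%. At graded CpGs the gaps were all in single CSR libraries. CSR 4 read 80.5% at chr20:20775438-20775439 (others 89.8 to 94.0%), 98.7% at chr20:20775509-20775510 (others 100%), 87.0% at chr20:20941288-20941289 (others 95.1 to 100%) and 97.3% at chr20:20753798-20753799 (others 100%). CSR 3 read 85.7% at chr20:20936831-20936832 (others 97.1 to 100%), CSR 6 read 76.2% at chr20:21034655-21034656 (others 100%) and CSR 1 read 81.8% at chr20:21386043-21386044 (others 100%).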

How the results depend on the processing

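Member CpGs numbered 1319 with 20 reads per CpG, 1285 when all 12 libraries had to be covered and 3203 with 5 reads. Stepped CpGs numbered 10 with 5 reads, 3 with 20 reads, 3 when covered in all 12 libraries, 1 on the forward strand only and 3 on the reverse strand only. With states within 10 points there were 2 stepped CpGs and 0 shared a pattern, and with states within 20 points 49 and 16. With at least 1 library outside the most common state there were 22 and 10. Leaving out 1 library gave 5 to 7 stepped CpGs, 3 to 4 sharing a pattern and 17 to 24 graded CpGs. Graded CpGs, whose alternatives were chosen after seeing the data, numbered 9 on the forward and 7 on the reverse strand alone, where depth limits what can be evaluated. Calls ranged from 0 to 12 CpGs and from 0 to 3 tiles when 1 library was left out, and were 0 under the other alternatives. The mean level difference ran from 0.157 to 1.01 points when 1 library was left out, and was 0.119 without the graded CpGs and 1.55 weighted by reads; the read share difference ran from 0.00752 to 0.0197 percentage points. Without controls 3 and 5 together the mean level difference was 0.0719 points and the read share difference 0.00204 percentage points (two-sided exact permutation p = 0.752). Same-numbered CSR and control libraries did not deviate together over 650667 CpGs (r from -0.00725 to 0.0119), and the replicate block called 0 CpGs and 0 tiles in the window. Of the CSR libraries, only CSR 5 correlated best with the control library of its own number. Leaving out 1 RNA library moved the *Cdk1* difference between -3.77 and -1.71 FPKM and that of *Cabcoco1* between -10.7 and -4.45.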
